A study of Mus musculus with 8 samples.

Results

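Sphincter 2 is one of the muscle cell types assigned by the authors to single nuclei of the mouse iris. Its members were the nuclei carrying that assignment in the 3 untreated libraries: 352 of the 14365 untreated nuclei, and 34357 nuclei were assigned over all 8 libraries. Irises came from adult female mice of an albino strain, and each library was a pool of irises from several animals, so that the spread between libraries is a spread between pools. The untreated eyes received no drops (3 libraries), the constricted eyes received pilocarpine, a muscarinic agonist, under light (3 libraries), and the dilated eyes received hourly drops of phenylephrine, an adrenergic agonist, and cyclopentolate, a muscarinic antagonist, in the dark (2 libraries). Because drug and lighting were changed together, their effects cannot be told apart.

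The pupil is moved by a pair of smooth muscles that are classically described as arising, unlike most muscle, from the neural epithelium of the optic cup. From lineage tracing, the authors propose instead that neural crest cells supply most progenitors of the dilator and of sphincter 2. The sphincter rings the pupil margin and closes it when acetylcholine acts on muscarinic receptors. The dilator is a thin radial sheet on the back of the iris that opens the pupil when noradrenaline acts on alpha-1 adrenergic receptors. The assigned types split the sphincter into sphincter 1 and sphincter 2, and the question asked of the untreated nuclei was which transcripts set sphincter 2 apart from sphincter 1, from the dilator and from the other 7 assigned types.

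The 3 untreated libraries held 26, 136 and 190 sphincter 2 nuclei, or 1.76%, 2.13% and 2.93% of their nuclei. Their UMIs (unique molecular identifiers, each standing for 1 captured transcript) summed to 109148, 480546 and 674523, so untreated 1 is the shallowest of the 3 and its values are the least precise. The median sphincter 2 nucleus held 3460.5 UMIs, beside 3332 in sphincter 1 (544 nuclei) and 3410 in the dilator (4357 nuclei). None of the 352 nuclei carried a barcode found in another library, whereas 400 of all 34357 nuclei did. A doublet caller marked 15 of the 352 nuclei (4.26%), beside 52 of 544 in sphincter 1 (9.56%) and 23 of 4357 in the dilator (0.528%). Levels below are CPM, the UMIs of a gene per 1000000 UMIs summed over the nuclei of 1 type in 1 library, as mean ± SD over the 3 untreated libraries. As the types were assigned from the expression of these same nuclei, differences between types are given as descriptions without a test.

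The 4 marker genes of the type did not all point to sphincter 2 alone. *Wif1* (chr10:121033960-121100650, mm10), which encodes a secreted protein that binds and blocks Wnt ligands, stood at 541, 325 and 559 CPM in the 3 libraries (475 ± 130.3). Its next type was the dilator at 55.4 ± 4.23, an 8.58-fold lower level, sphincter 1 stood at 20.0 ± 9.02, and no other type exceeded 4.03. *Hhip* (chr8:79965851-80058006), a membrane protein that sequesters Hedgehog ligands, stood at 889, 866 and 1173 CPM (976 ± 171), 3.51-fold over the dilator (278 ± 35.4) and 5.97-fold over sphincter 1 (163 ± 34.8). For both genes the 3 sphincter 2 values lay above every value of the other 9 types. *Syt1* (chr10:108497650-109010982), a calcium sensor of vesicle release, was at 1713, 2212 and 2412 CPM, but sphincter 1 was higher in each library at 4855, 4211 and 4425. *Myocd* (chr11:65176561-65269989), the coactivator that drives smooth muscle genes, was at 449, 649 and 815 CPM, also below sphincter 1 in each library (1016, 812 and 859). In the dilator these genes stood at 40.2 ± 1.52 (*Syt1*) and 33.0 ± 5.66 CPM (*Myocd*), so this pair marked both sphincter types and set them apart from the dilator, while *Wif1* and *Hhip* were the markers that were highest in sphincter 2.

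**Figure D1:**
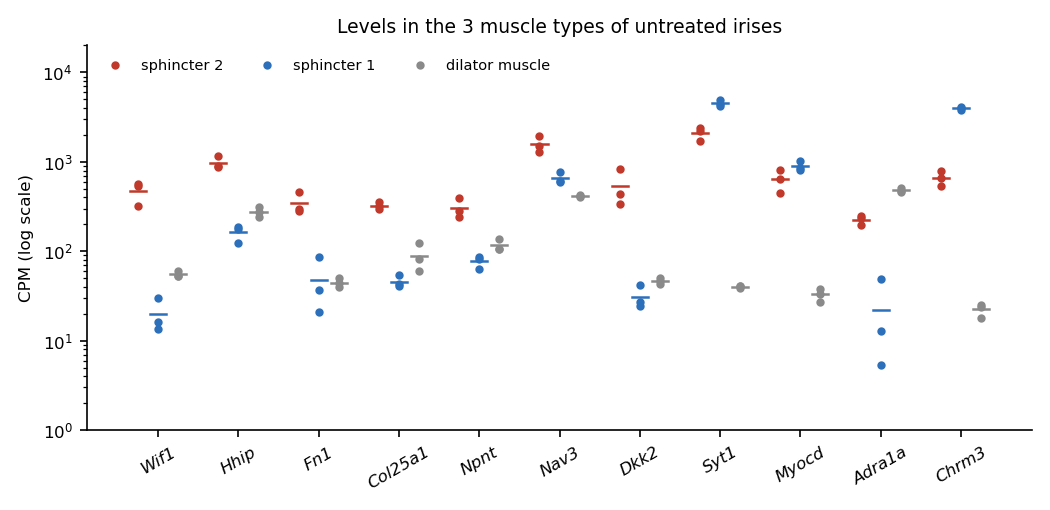
CPM of the 4 markers, of *Fn1*, *Col25a1*, *Npnt*, *Nav3* and *Dkk2* and of the receptors *Adra1a* and *Chrm3* in untreated irises (log axis), with a point for each library of sphincter 2, sphincter 1 and the dilator and a line at the mean. *Wif1* and *Hhip* are separated from both other muscles in all 3 libraries, whereas *Syt1* and *Myocd* are higher in sphincter 1.

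A gene was counted as highest in sphincter 2 when its mean was at least 2-fold over that of every other type, its level was above all of them in each of the 3 libraries, and at least 30 UMIs were counted. This held for 29 of 7002 genes (0.414%), and 13 of the 29 rested on fewer than 60 UMIs. The count was 18 without untreated 3. The next type was sphincter 1 for 14 of them, the dilator for 10 and a non-muscle type for 5. Just inside the 2-fold limit lay *Chst12* (2.13-fold) and *Tmem143* (2.08-fold), and just outside it *Itga2b* (1.92-fold) and *Emilin2* (1.88-fold).

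*Fn1* (chr1:71585520-71653200), which encodes fibronectin, a matrix glycoprotein bound by integrins, stood at 458, 285 and 298 CPM (347 ± 96.4), 4.78-fold over stroma 2 (72.6 ± 30.3), with means of 47.8 CPM in sphincter 1 and 44.7 in the dilator. *Col25a1* (chr3:130131501-130599877), a transmembrane collagen, stood at 293, 356 and 317 CPM (322 ± 31.6), 3.64-fold over the dilator (88.4 ± 31.9). The *Col25a1* values varied little between the 3 libraries, *Fn1* was highest in untreated 1, and for neither gene did they overlap those of another type. *Npnt* (chr3:132881745-132950291), nephronectin, a basement membrane ligand of integrins, stood at 394, 243 and 280.2 CPM and was 2.46-fold over stroma 1 (124 ± 24.1), with the dilator at 117 ± 17.8 and sphincter 1 at 77.4 ± 12.4. *Pappa* (chr4:65124174-65357509) encodes a secreted protease that cleaves insulin-like growth factor binding proteins. It stood at 779, 554 and 409 CPM, 2.22-fold over the dilator (262 ± 37.2) and 5.29-fold over sphincter 1 (109.7 ± 5.86).

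Other members are intracellular or were covered by few UMIs. *Nav3* (chr10:109681259-110456204), a microtubule-binding neuron navigator, stood at 1924, 1294 and 1491 CPM, 2.39-fold over sphincter 1 (658 ± 96.0) and 3.80-fold over the dilator (413 ± 11.2). *Mei4*, a gene known for its part in meiotic DNA breaks, stood at 156, 196 and 154 CPM, 2.85-fold over the dilator (59.0 ± 11.4). The largest folds belonged to genes with few UMIs. *Cdh7*, a classical cadherin, was 15.8-fold over the next type but rested on 31 UMIs and on 82.5, 10.4 and 25.2 CPM, the first from the shallowest library. *Gm6040* was 14.3-fold over the next type at 27.5, 12.5 and 37.1 CPM. *Bmp5*, a bone morphogenetic protein ligand, was at 32.9 ± 12.9 CPM, 2.54-fold over the dilator (12.9 ± 2.88), while sphincter 1 held 1.43 ± 1.36.

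Against the 2 other muscles alone, a level at least 2-fold higher in each library was asked for, and 30 of 7002 genes (0.428%) were above both sphincter 1 and the dilator, and 13 of these are among the 29. *Dkk2* (chr3:132085292-132180304), a secreted Dickkopf-family modulator of the Wnt co-receptor, led by its smallest ratio in any library (7.78-fold). It stood at 825, 337 and 440.3 CPM in sphincter 2, beside 30.9 ± 9.23 in sphincter 1 and 46.7 ± 3.59 in the dilator. Among muscles it was therefore a sphincter 2 transcript, but stroma 2 (1274 ± 109) and endothelial cells (588 ± 281) also held it. Endothelial markers in sphincter 2 summed to 128, 25.0 and 26.7 CPM in the 3 libraries, highest in untreated 1 as *Dkk2* was, and stroma 2 markers to 183, 137 and 168 CPM. The part of these cells in the *Dkk2* level was not tested. *Mtmr10*, a myotubularin-related protein, was at 183, 185 and 208 CPM against 44.9 ± 6.77 in sphincter 1 and 65.6 ± 4.75 in the dilator, with little spread between libraries. *Lrrn1*, a leucine-rich repeat membrane protein, was at 36.6, 39.5 and 48.9 CPM against 8.72 ± 2.20 and 10.9 ± 1.06.

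Fewer genes met the reverse rule: 8 of 8367 (0.0956%) were at least 2-fold below both other muscles in each library. This count was 17 without untreated 1, 18 without untreated 2 and 35 with a minimum of 10 UMIs. *Sntg1*, a syntrophin of the dystrophin complex, was at 128, 121 and 153 CPM, against 381 ± 33.7 in sphincter 1 and 354 ± 32.6 in the dilator. *Six3*, a homeobox gene of the eye field and optic cup, gave 1 UMI over all 352 nuclei (0, 2.08 and 0 CPM), against 41.6 ± 10.5 in sphincter 1 and 8.40 ± 0.699 in the dilator. *Prdm16*, a zinc finger transcriptional regulator, was at 9.16, 4.16 and 4.45 CPM against 24.6 ± 3.37 and 18.9 ± 5.14. *Rapsn*, which clusters acetylcholine receptors at the neuromuscular junction, was at 0, 12.5 and 4.45 CPM against 25.5 ± 8.74 and 43.0 ± 2.66. No UMI of *Dusp27* was counted in sphincter 2, which allows up to 2.37 CPM over the pooled nuclei (3 counts, counting error only), beside 26.7 ± 9.50 CPM in sphincter 1.

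At any size of difference, 722 of the 7002 genes (10.3%) were above both other muscles in each library and 219 (3.13%) below both. These genes had to reach the minimum of UMIs in sphincter 2 itself, so genes with the lowest levels there were left out. That rule limits the count below both, here and in each gene list, so the excess of genes above is not read as a difference in direction. The split also depended on scaling. With TMM library sizes, which shifted sphincter 2 by a mean of -0.14 on the log2 scale against sphincter 1 and by as much against the dilator, 390 genes (5.57%) were above and 538 (7.68%) below, so that genes only slightly above both muscles carry little weight.

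Whether these genes also stood out in libraries that had not been used to pick them was read from the 5 treated libraries. Nuclei there had been assigned by the same annotation, which rests on expression. High levels of such genes are therefore favoured by the assignment, and the counts describe the agreement of libraries without a test. Of the 29 highest genes, 11 were above all other types in each of the 5 (background 57 of 7002, 0.814%) and 19 in at least 4. Of the 30 genes above both muscles, 18 were so in each of the 5 (179 of 7002, 2.56%), and of the 8 below both, 3 were (85 of 8367, 1.02%). *Wif1* averaged 386 CPM there (2.90-fold over the next type), *Hhip* 917 (4.68-fold) and *Npnt* 389 (3.49-fold), each highest in 5 of 5 libraries. *Fn1* (2.82-fold), *Mei4* (2.74-fold), *Pappa* (1.98-fold) and *Nav3* (1.94-fold) were also highest in all 5. The means of *Pappa* and *Nav3* thus fell just short of the 2-fold limit there. *Col25a1* was highest in 4 (2.18-fold). *Zfp804b*, a zinc finger gene among the 29 that was singled out after its values were seen, was highest in 0.

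Most of what separates the sphincter from the dilator was present in sphincter 2 at an intermediate level. For 362 genes whose mean CPM + 10 differed at least 4-fold between sphincter 1 and the dilator, with at least 50 CPM in one of them, position was set to 0 at the dilator level and 1 at the sphincter 1 level on the log2(CPM + 10) scale. The median position of sphincter 2 was 0.472 (quartiles 0.251 and 0.696), with library medians of 0.452, 0.459 and 0.462. Only 17 genes lay below 0 and 10 above 1. The 216 genes higher in sphincter 1 had a median of 0.421 and the 146 genes higher in the dilator one of 0.490. On the linear CPM scale these medians were 0.190 and 0.694, so that sphincter 2 held well under the midpoint of most sphincter 1 transcripts and of most dilator transcripts in CPM terms. At the far ends, *Itga9*, an integrin subunit, lay beyond the dilator at -0.29, and *Glis3*, a Kruppel-like zinc finger factor, lay beyond sphincter 1 at 1.30, as did *Lmo4*, a LIM-only transcriptional cofactor, at 1.25.

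**Figure D2:**
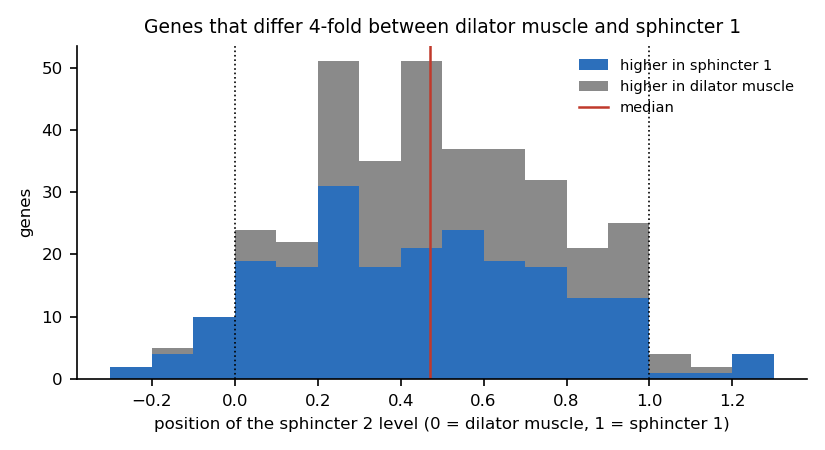
Number of genes by position of sphincter 2, stacked by the muscle with the higher level, between the dilator (0) and sphincter 1 (1) on the log2(CPM + 10) scale, for the 362 genes that separate these muscles. The median lies at 0.472, and 27 genes fall outside the range of 0 to 1.

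An intermediate mean can come from a mixture of nuclei or from nuclei that are each intermediate, so the balance was also read nucleus by nucleus. Of the UMIs that a nucleus had on the 362 genes, the share on the genes higher in sphincter 1 had a median of 55.9% in sphincter 2 (5th to 95th percentile 27.8% to 79.3%), with 59.2%, 54.0% and 56.2% in the 3 libraries. Sphincter 1 nuclei had a median of 94.4% (61.6% to 97.2%) and dilator nuclei 10.5% (5.92% to 17.9%). The median sphincter 2 nucleus had 218 UMIs on these genes. Between the 95th percentile of the dilator and the 5th of sphincter 1 lay 223 of the 352 nuclei (63.4%), 2 lay at or below that range and 127 (36.1%) at or above it. The lower end of sphincter 1 moved with the doublet calls. When nuclei marked as doublets were left out, its 5th percentile stood at 86.6%, and 335 of 337 sphincter 2 nuclei (99.4%) lay between the limits. Of the 48 sphincter 1 nuclei with a balance under 79.3%, 41 were doublet calls and their median was 6574 UMIs, beside 3243 in the other sphincter 1 nuclei. The 334 sphincter 2 nuclei in the same range held 14 doublet calls and had a median of 3484.5 UMIs. As the types were assigned on expression, this balance describes the assigned nuclei and is not a test of how many types there are.

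**Figure D3:**
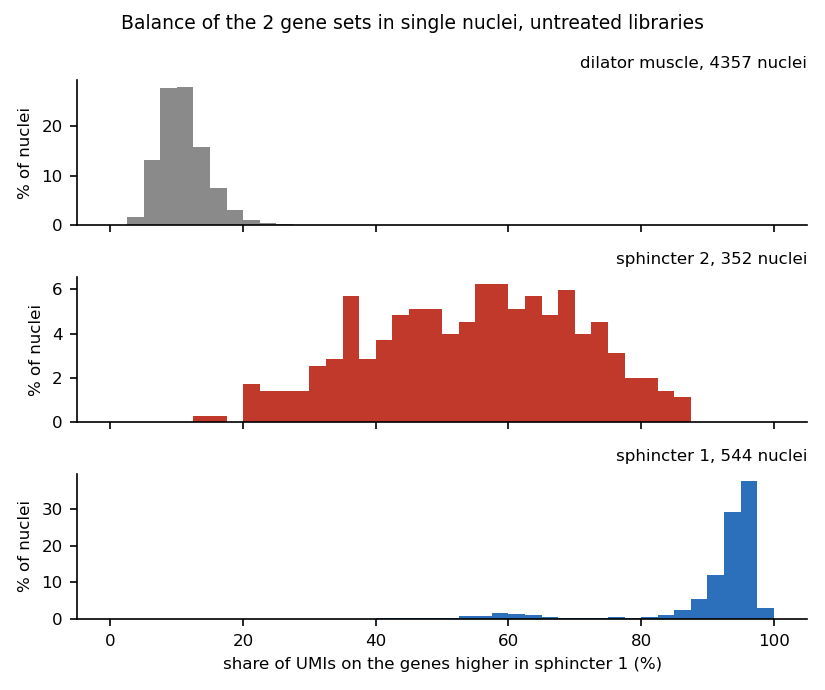
Share of UMIs (%) on sphincter 1-higher genes, among UMIs on the 362 genes, for each untreated nucleus of the dilator, sphincter 2 and sphincter 1. Sphincter 2 nuclei centre on 55.9%, between dilator nuclei at 10.5% and sphincter 1 nuclei at 94.4%.

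The receptors for the neurotransmitters of both muscles were found together. *Adra1a*, the alpha-1A adrenergic receptor, was at 247, 196 and 234 CPM in sphincter 2, and below the dilator (479 ± 25.8). Sphincter 1 differed between libraries, at 5.38, 12.8 and 48.7 CPM, so that sphincter 2 was 46.0-, 15.3- and 4.80-fold over it, least in untreated 3. *Chrm3*, the muscarinic M3 receptor, was at 659.7, 543 and 792 CPM, 29.8-fold over the dilator (22.3 ± 3.83) and far below sphincter 1 (3958 ± 154). Endothelial cells also held *Chrm3* (722 ± 181). *Chrm2*, the muscarinic M2 receptor, had another pattern: at 211, 194 and 181 CPM it was below both sphincter 1 (315 ± 35.4) and the dilator (629.8 ± 48.4).

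In single nuclei, at least 1 UMI of *Adra1a* was found in 42.0% of sphincter 2 nuclei and of *Chrm3* in 63.1%. In stroma 1, a stromal type that should lack this pair, these shares were 2.32% and 3.02% at a median of 2691 UMIs, which gives the background. Both transcripts were found in 89 of the 352 nuclei (25.3%), which is close to the 26.5% given by the product of the single shares. By library, 11, 31 and 47 nuclei held both, or 42.3%, 22.8% and 24.7%. *Adra1a* alone was found in 59 nuclei (16.8%), *Chrm3* alone in 133 (37.8%) and neither in 71 (20.2%). The share with both was 6.99% in sphincter 1 (38 of 544), 4.93% in the dilator (215 of 4357) and 0.0774% in stroma 1 (1 of 1292). After each nucleus was thinned to 1000 UMIs, it was 6.55% in sphincter 2 (23 of 351), 2.22% in sphincter 1 and 0.739% in the dilator, with a product of shares of 7.72% in sphincter 2. In untreated 1 no thinned sphincter 2 nucleus held both (0 of 26, which allows a share of up to 11.5%, counting error only), and the dilator was at 1.25% there, so the pooled order rests on untreated 2 (8.09%) and untreated 3 (6.35%). The pair *Wif1* and *Hhip* was found in 193 nuclei (54.8%), against 2.39% in sphincter 1 and 8.56% in the dilator. Singly, *Wif1* was found in 59.7% of sphincter 2 nuclei (32.8% thinned) and *Hhip* in 87.5% (58.4% thinned), against 0.542% and 1.70% in stroma 1.

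Contractile genes were, as a list, near the level of sphincter 1. In the list of smooth muscle contractile and cytoskeletal genes, the median log2 difference of sphincter 2 was -0.04 to sphincter 1 and 0.98 to the dilator, while over all genes with 30 UMIs these medians were 0.10 and 0.03. *Myh11*, the smooth muscle myosin heavy chain, was at 2801 ± 344 CPM, beside 2939.8 ± 268 in sphincter 1 and 1931 ± 219 in the dilator. *Acta2*, smooth muscle actin, was at 1293 ± 237, 1310.1 ± 281 and 613 ± 296 CPM in the same order. Of the 22 genes measured, 4 were above both muscles in each library (*Tagln*, *Myl6*, *Cald1* and *Flna*) and 0 below both (18.2% above, beside 10.3% of all genes). With TMM library sizes 1 was above and 0 below (4.55% above, beside 5.57%), so the share above was not over that of all genes under that scaling. *Mylk*, the myosin light chain kinase that triggers contraction, stood at 5456 ± 386 CPM, over sphincter 1 (2982 ± 131) and under the dilator (8212 ± 320.1), whereas *Myh11* and *Acta2* had their lowest mean of the 3 muscles in the dilator. Among the regulators, the noncoding transcript *Carmn* was at 2363 ± 581 CPM (sphincter 1 3012 ± 556, dilator 1036 ± 156).

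Smooth muscle genes are commonly bound by serum response factor at the CArG box, the site that its coactivator myocardin acts through. RefSeq promoters (GRCm38.p6, 250 bases before the start) were searched for this box, which reads alike on both strands. It was found in 482 of all 32851 promoter windows (1.47%), in 3 of 21 windows of the contractile list (14.3%, 19 of 23 genes matched) and in 0 of 27 windows of the 29 highest genes (22 matched). The 3 contractile genes with a box were *Myl6*, *Myl9*, a regulatory myosin light chain, and *Vcl*, the adhesion protein vinculin. *Tagln*, *Actg2* and *Myh11*, and *Fn1*, *Nav3* and *Pappa* of the 29, had no promoter entry and were not searched. Only exact matches to the box were counted, so nothing is read from genes without one. The box of *Myl6* begins 50 bases before the start, in a window that lies inside an annotated gene and is not printed. The windows of *Myl9* and *Vcl* are printed. The first is chr2:156775278-156775337 and the second chr14:20929148-20929205, both on the plus strand, with the box in capitals.
Myl9: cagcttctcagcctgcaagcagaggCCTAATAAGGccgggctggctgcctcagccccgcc
Vcl: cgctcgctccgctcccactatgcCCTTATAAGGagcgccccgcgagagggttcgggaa
The boxes begin 161 (*Myl9*) and 227 (*Vcl*) bases before the start. *Myl9* was at 983 ± 73.1 CPM in sphincter 2, beside 899 ± 11.9 in sphincter 1 and 608 ± 56.1 in the dilator, and *Vcl* at 347 ± 22.3, 365 ± 10.1 and 212 ± 17.9. A match in the letters is a description only, and no binding was measured.

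Striated muscle genes, by contrast, were markedly lower than in sphincter 1. The 4 genes measured, of 17 found in the data, had a median log2 difference of -2.97 to sphincter 1. None was below both muscles, and the dilator was at or under sphincter 2 for most of them. As 30 UMIs in sphincter 2 were required, members with the lowest levels there were left out, so nothing is read from that absence. *Mybpc1*, a myosin-binding protein of slow skeletal muscle, was at 419 ± 121 CPM against 2052 ± 92.3 in sphincter 1 and 38.3 ± 2.99 in the dilator. *Dmd*, which encodes dystrophin, was at 155 ± 72.9 CPM in sphincter 2, near the dilator (147 ± 34.4) and not near sphincter 1 (2087 ± 354). *Ctnna3*, a catenin of cardiac and muscle junctions, was at 42.5 ± 14.4 CPM, again near the dilator (42.8 ± 23.5) and against 1437 ± 60.1 in sphincter 1.

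Wnt ligands bind frizzled receptors and their co-receptors, secreted inhibitors intercept them outside the cell, and a small set of target genes reports the signal. Of 25 genes of this list measured, 10 (40.0%) were above both muscles in each library and 0 below both, beside 10.3% above and 3.13% below over all genes. With TMM library sizes, 8 were above and 1 below (32.0% and 4%, beside 5.57% and 7.68% of all genes). The secreted modulators were *Wif1* and *Dkk2*, described above. *Wif1* was a marker of the type, *Dkk2* led the genes above both muscles, and the list was chosen with earlier results known. Its share above is favoured by that choice and is given as a description. *Rspo2*, an R-spondin that strengthens Wnt signals, was at 359 ± 59.5 CPM, over sphincter 1 (55.7 ± 21.1) but under the dilator (509 ± 16.5). Among receptors, *Lgr5*, which binds R-spondins, was at 125 ± 35.1 CPM (sphincter 1 28.7 ± 12.4, dilator 68.4 ± 5.09), and *Fzd4*, a frizzled, at 79.5 ± 15.2 (23.5 ± 2.00 and 60.6 ± 6.47). *Znrf3*, a ubiquitin ligase that removes frizzleds from the membrane, was at 584 ± 21.6 CPM (449 ± 45.5 and 471 ± 12.3). Downstream, *Lef1*, a transcription factor partner of beta-catenin, was at 268 ± 34.4 CPM (173 ± 11.9 and 36.3 ± 4.45) and *Nkd1*, a feedback inhibitor, at 287 ± 32.8 (176 ± 8.18 and 113 ± 11.2). *Axin2*, the usual target used to read out the pathway, was at 105 ± 17.2 CPM, between sphincter 1 (84.3 ± 14.4) and the dilator (124 ± 8.50).

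Hedgehog ligands act through patched receptors on the Gli transcription factors. Of 11 genes measured, 3 (27.3%) were above both muscles and 0 below, beside 10.3% and 3.13% of all genes. With TMM library sizes 2 were above and 1 below (18.2% and 9.09%, beside 5.57% and 7.68%). Beside *Hhip*, these were the co-receptors *Boc*, at 166 ± 19.9 CPM against 79.8 ± 10.6 in sphincter 1 and 78.4 ± 8.29 in the dilator, and *Cdon*, at 73.1 ± 16.1 against 50.0 ± 6.26 and 62.4 ± 2.17. *Gli2* (157 ± 26.8) and *Gli3* (186 ± 19.0) lay between sphincter 1 and the dilator. *Gli1*, the usual target of the pathway, gave 2 UMIs in sphincter 2. As this list was chosen with earlier results known and holds the marker *Hhip*, its share above is likewise a description.

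**Figure D4:**
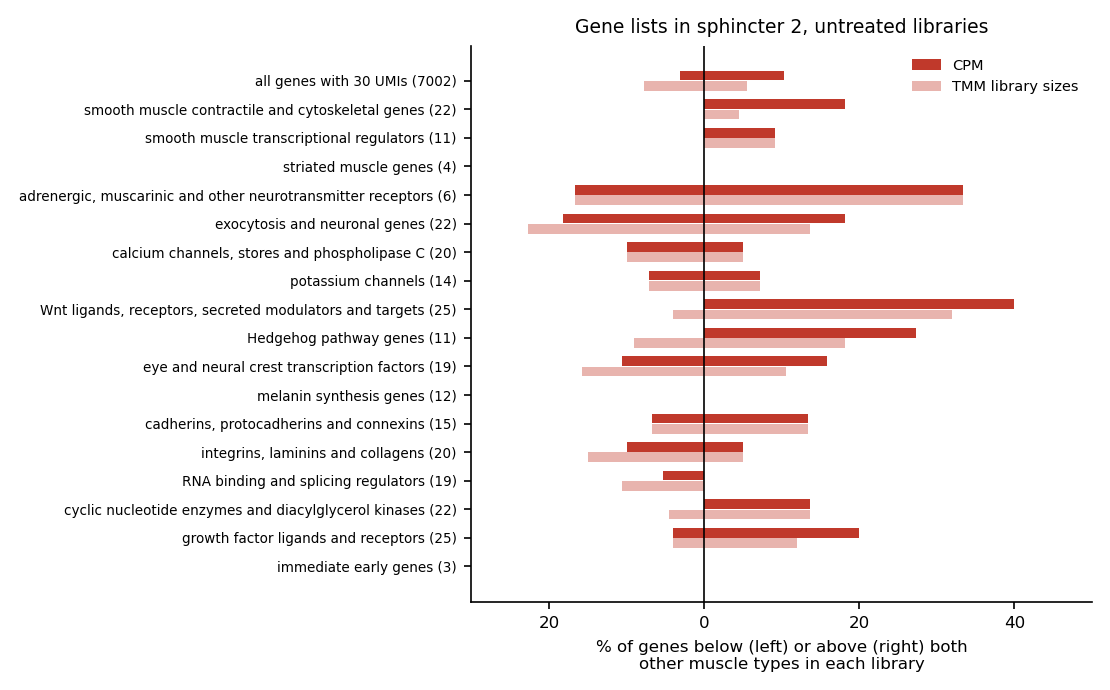
For each gene list, the percentage of its measured genes that were above both sphincter 1 and the dilator, or below both, in each of the 3 untreated libraries at any size of difference. Dark bars are from CPM and pale bars from TMM library sizes, with the number of genes measured in brackets. The lists were chosen with earlier results of these data known. The Wnt list (10 of 25 above both) has the longest dark bar to the right, beside 10.3% of all genes, and with TMM library sizes the receptor list (33.3% of 6 genes) and the Wnt list (32.0%) are the longest.

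The remaining lists were mixed. Their counts are to be read against all genes, of which 10.3% were above both muscles and 3.13% below, or 5.57% and 7.68% with TMM library sizes. Of 22 exocytosis and neuronal genes, 4 were above both muscles (*Rims1*, *Negr1*, *Nav3* and *Esyt2*) and 4 below (*Sv2a*, *Cadps*, *Rbfox1* and *Nlgn1*), and 3 and 5 with TMM library sizes. *Esyt2*, a tether between the endoplasmic reticulum and the plasma membrane, was at 1436 ± 129 CPM against 1011 ± 5.77 in sphincter 1. Of 20 genes of calcium channels, stores and phospholipase C, *Plcb4* alone was above both, at 4402 ± 497 CPM against 2819.8 (sphincter 1) and 3369 ± 368 (dilator). It encodes a phospholipase C that Gq-coupled receptors activate. *Cacnb2* and *Cacnb4*, subunits of voltage-gated calcium channels, were below both. Potassium channels had 1 gene above (*Kcnc2*) and 1 below (*Kcnj3*) of 14.

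Among the 22 phosphodiesterase, cyclase and diacylglycerol kinase genes, 3 were above both (13.6%, near the 10.3% of all genes) and 0 below, and 3 and 1 with TMM library sizes. *Pde4d*, which degrades cyclic AMP, was at 4247 ± 236 CPM against 2355 ± 186 in sphincter 1 and 2748 ± 44.5 in the dilator, and *Dgki*, a diacylglycerol kinase, at 1607 ± 96.1 against 1208 ± 168 and 659 ± 76.7. Of 25 growth factor genes, 5 were above both and 1 (*Erbb4*) below, and 3 and 1 with TMM library sizes. *Ntf3*, the neurotrophin-3 ligand, was at 409.7 ± 10.4 CPM against 303 ± 34.7 and 136 ± 7.59, and *Bmp5*, *Fgf13*, *Fgfr2* and *Pdgfd* were the others. Of 19 eye and neural crest transcription factors, 3 were above both (*Lmo4*, *Meis1* and *Tbx2*) and 2 below (*Eya1* and *Eya2*), and 2 and 3 with TMM library sizes. *Lmo4* was at 985 ± 20.8 CPM against 664 ± 22.6 and 132 ± 15.2. *Pax6*, the master regulator of eye development, was similar in the muscles at 1408 ± 129 CPM in sphincter 2, 1258 ± 122 in sphincter 1 and 1506 ± 152 in the dilator.

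Among 20 integrin, laminin and collagen genes, *Col25a1* was above both and *Col4a5* and *Col4a6*, chains of basement membrane collagen, were below, and 1 was above and 3 were below with TMM library sizes. *Col4a6* was at 514 ± 86.6 CPM against 1223 ± 315 in sphincter 1 and 709 ± 43.2 in the dilator. Of the 15 cadherin and connexin genes, *Cdh7* and *Cdh20* were above and *Pcdh15* below. The 6 neurotransmitter receptor genes had 2 above both and 1 below, and the same counts with TMM library sizes. Those above were *Htr2a*, a serotonin receptor (104 ± 12.8 CPM against 60.2 ± 19.3 and 22.8 ± 1.89), and *Ednra*, an endothelin receptor. Melanin synthesis genes were 0 above and 0 below of 12. As a list they lay between the muscles by their medians, with log2 differences of -1.99 to the dilator and 0.55 to sphincter 1. *Dct*, a melanin synthesis enzyme still transcribed in albino mice, was at 952 ± 190.3 CPM against 5220.0 ± 321 in the dilator and 586 ± 221 in sphincter 1. The 19 RNA-binding and splicing genes had 0 above and 1 below (0 and 2 with TMM library sizes), and the 3 immediate early genes and 4 striated muscle genes had 0 of either.

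Transcripts of other cell types were looked for in the same nuclei, as their summed marker level relative to the level in their own type. All 7 dilator markers were detected. They summed to 2813, 3536 and 3491 CPM in the 3 libraries, 53.5% of the level in the dilator, with *Unc13c*, a vesicle priming protein, giving 1610.2. All 6 sphincter 1 markers were detected at 1338, 986 and 1199 CPM in sum, 12.6% of the level in sphincter 1, with *Chrm3* giving 665. Ciliary body markers stood at 10.3%, with the potassium channel gene *Kcnq5* giving 914 CPM of 1817, and iris pigment epithelium markers at 5.58%, and those of stroma 2, stroma 1, the ciliary body epithelium, endothelial cells and leukocytes at 2.52%, 1.55%, 1.48%, 0.674% and 0.220%. The leukocyte marker with the highest level was *Mrc1*, with 5 UMIs. Of cells that have no assigned type, 5 of 7 markers of pericytes and vascular smooth muscle were detected in sphincter 2, at 31.6 CPM in sum (27.5, 33.3 and 34.1 by library), with *Cspg4* at 18 UMIs and *Rgs5* and *Higd1b* at 0. For axons and neurons 4 of 5 markers were detected, at 10.9 CPM in sum (18.3, 8.32 and 5.93), with *Nefm* at 7 UMIs and *Nefl* at 0. Their part in the genes above was not tested.

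The effect of the drops on sphincter 2 was tested across 6691 genes on the UMIs summed over its nuclei in each of the 8 libraries (edgeR, quasi-likelihood), with 203 nuclei in constricted and 157 in dilated irises. A gene was called past 0.6 on the log2 scale at a Benjamini-Hochberg adjusted p under 0.05. In dilated irises 98 genes (1.46%) were higher than in untreated irises and 94 (1.40%) lower. DESeq2 called fewer genes in total, as counted in the closing section. The total of 192 was 48 without dilated 2, 81 without untreated 2, 61 without untreated 3 and 350 with a term for the run of consecutive library numbers in the sample titles. Of the 29 highest genes, 24 could be tested, and 4 were called, all lower. As these genes had been picked for high values in the same untreated libraries, a lower value elsewhere is favoured by the choice and nothing is read from that count. The choice bears in the same way on the fall of each of them below. *Nav3* fell by 1.27 on the log2 scale (SE 0.21, edgeR adjusted p = 0.000275), with 611 and 599.6 CPM in the dilated libraries, below all 3 untreated and all 3 constricted ones (1432, 1386 and 1275). *Dkk2*, which is not one of the 29 because other types hold more of it, fell by 2.22 (SE 0.30, edgeR adjusted p = 1.74e-05), to 107 and 92.0 CPM. *Dkk2* had led the genes above both muscles by its values in the same untreated libraries, so the choice bears on its fall too. Its constricted values were 256, 296 and 245 CPM, each below all 3 untreated ones, and both dilated libraries were lower than the other 6. *Col25a1* fell by 1.10 (SE 0.24, edgeR adjusted p = 0.00757; 152 and 136 CPM) and *Mei4* by 1.30 (SE 0.30, edgeR adjusted p = 0.0119; 59.3 and 71.5 CPM). *Col25a1* lost its call without dilated 2 (edgeR adjusted p = 0.118) or untreated 2 (0.0664), and *Mei4* without dilated 1 (0.141), dilated 2 (0.0661) or untreated 2 (0.111), whereas *Nav3* and *Dkk2* kept theirs without each of the 3 untreated and 2 dilated libraries in turn, with the run term and by DESeq2. The fourth of the 29 to be called was *Zfp804b*, at 64.1, 81.2 and 89.0 CPM in untreated, 58.4, 86.6 and 25.3 in constricted and 25.9 and 6.81 in dilated libraries. *Zfp804b* lost its call without untreated 3 (edgeR adjusted p = 0.0641), and DESeq2 gave no value for it. Its log2 difference was -2.26 over all libraries and -1.65 without dilated 2. As it was highest in none of the 5 treated libraries, its place among the 29 rests on the untreated ones, and its values are given as a description.

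The 2 markers that were highest in sphincter 2 were not called. The log2 difference of *Wif1* between dilated and untreated irises was 0.17 (SE 0.24, edgeR adjusted p = 0.835), with 400.1 and 586 CPM, and that of *Hhip* was -0.36 (SE 0.22, edgeR adjusted p = 0.527), with 589 and 845 CPM. In constricted irises 4 genes (0.0598%) were higher and 2 (0.0299%) lower, and the total of 6 was 10 without untreated 1, 1 without constricted 2 and 0 without untreated 2 or untreated 3. It was 25 with a replicate block, 24 without the filter on low counts, 11 with the run term and 1 by DESeq2. One of those called, named after its values were seen, was *Pappa*, which rose by 1.07 on the log2 scale (SE 0.21, edgeR adjusted p = 0.0214) to 1208, 1328 and 916 CPM. All 3 constricted libraries were above the untreated ones, but the call was lost when constricted 1 (edgeR adjusted p = 0.0608), constricted 2 (0.113), untreated 2 (0.139) or untreated 3 (0.761) was left out.

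**Figure D5:**
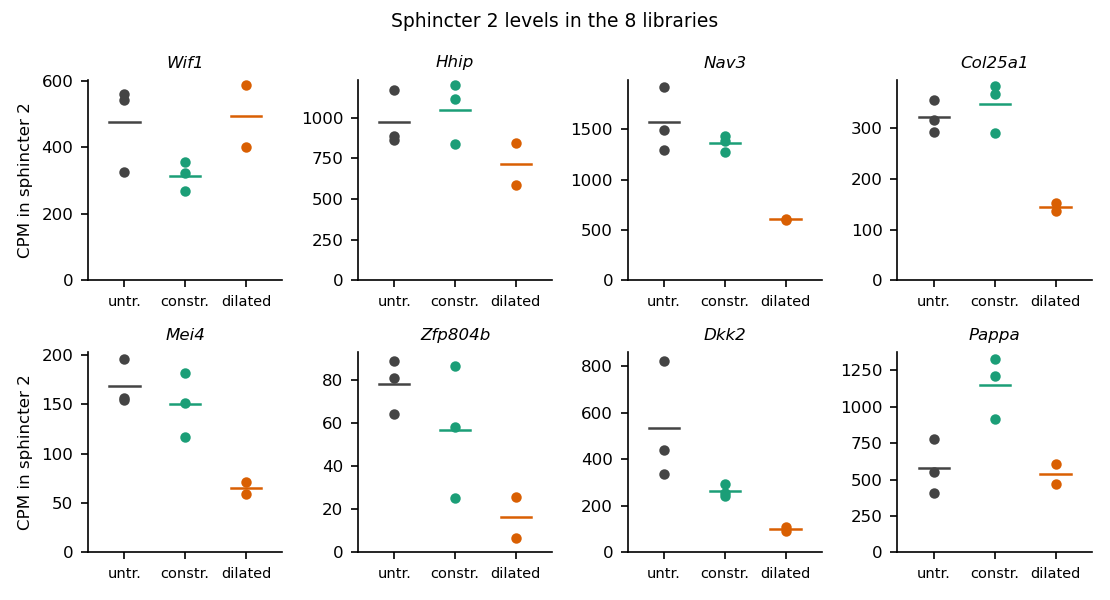
Sphincter 2 CPM of *Wif1*, *Hhip* and 6 genes called in a comparison of conditions, with 1 point for each of the 8 libraries. *Nav3* and *Dkk2* are lower in both dilated libraries, while the untreated *Wif1* points overlap those of both treatments. Horizontal lines are means.

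Sphincter 2 made up 2.27 ± 0.597% of nuclei in untreated libraries (n = 3) and 2.25 ± 0.0459% in constricted ones (n = 3), a difference smaller than the spread between libraries (two-sided exact permutation p = 1). It made up 0.970% and 2.32% in the 2 dilated libraries (two-sided exact permutation p = 0.6, where the smallest possible is 0.2). Of the nuclei of both sphincter types, sphincter 2 made up 38.2 ± 4.15% in untreated and 46.3 ± 1.71% in constricted libraries (n = 3 each). These groups did not overlap, and the two-sided exact permutation p of 0.1 is the smallest that 3 against 3 libraries allow. In dilated libraries the share was 40.1 ± 0.958% (n = 2, two-sided exact permutation p = 0.8).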

How the data were processed

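Nuclei of pooled irises were sequenced on a droplet platform. The authors aligned reads to mm10 with Cell Ranger 3.1.0, counted exons and introns, clustered nuclei with Seurat and assigned cell types, and the deposited values were unnormalized UMI counts per gene and nucleus with the assigned type. The authors also deposited the percentage of each nucleus's UMIs on mitochondrial genes, which they had used as a filter and which enters no value here. Members and gene lists were chosen with earlier results of these data known. Counts were summed per library and type and given as CPM. The labels do not say how far the pools were handled apart, so p-values measure only the spread between libraries, which may in part be technical. A gene needed 30 UMIs in sphincter 2 to be counted as above. To be counted as below, it needed 30 UMIs in both other muscles under the 2-fold rule. At any size of difference, and in the gene lists, the minimum was again 30 UMIs in sphincter 2. Named genes were the 4 markers, the 20 highest genes by fold over the next type, the 10 leading genes above and below both muscles, in each list the 5 with the highest level and members taken by these rules, and *Adra1a* and *Chrm3*. Other genes were named after their values were seen. Conditions were fitted in edgeR 4.0.16 (TMM, filterByExpr, R 4.3.3) over all 8 libraries, with DESeq2 1.42.0 as an alternative. Doublets were marked with Scrublet in scanpy 1.11.5 at a score of 0.2, a limit chosen after the data were seen, and were kept. Shares were compared by exact permutation over libraries. Fits were tested on simulated data. Gene coordinates are from GENCODE (mm10), promoters from RefSeq. The sequencing runs and preparation batches are not tied to single libraries in the sources used here.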

Additional observations from a re-analysis of the deposited data

How the results depend on the processing

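Of the counts of genes, those highest in sphincter 2, above both other muscles and below both were 11, 6 and 2 when all 8 libraries had to hold, 11, 15 and 3 with at least 100 UMIs, 68, 73 and 30 at 1.5-fold, and 10, 9 and 3 at 3-fold, and 35 genes were below both with at least 10 UMIs. Leaving out 1 untreated library gave 18 to 26, 24 to 38 and 6 to 18, with 18 highest genes without untreated 3 and 17 and 18 below both without untreated 1 and 2. The median position was 0.454 without doublet calls, 0.478 with each nucleus weighted alike, 0.480 and 0.397 with pseudocounts of 1 and 50, 0.459 with no minimum level, and 0.445 to 0.470 without 1 library. Genes called in dilated irises numbered 350 with a term for the run of library numbers and 90 by DESeq2 against 192, and 48 to 170 without 1 library, with 2 to 4 of the highest genes. Genes called in constricted irises numbered 24 without a filter, 25 with a replicate block, 11 with the run term, 11 with the compared libraries alone and 1 by DESeq2 against 6, and 0 to 10 without 1 library (0 to 1 of the highest genes). An unadjusted edgeR p under 0.05 was found for 397 of 6691 genes, and for 234 and 221 where 0 were called (without untreated 2 or 3). The numbers do not pair libraries (correlations of same-numbered deviations 0.0513, 0.00899 and 0.0860), and with a replicate block 232 genes were called in dilated irises, 163 of them shared. Without dilated 1 or 2 the lone dilated library is assumed to vary like the others. The share of nuclei differed from untreated by -0.277 to 0.307 percentage points in constricted and by -1.30 to 0.0501 in dilated irises without 1 library. Over all libraries, the share of sphincter 2 among nuclei of both sphincter types differed from untreated by 8.03 percentage points in constricted and 1.89 in dilated irises. Of 871 values for 109 named genes, 747 moved by less than the spread between libraries, 124 by more, and 0 reversed. Untreated 1, with 26 nuclei, limits the depth, and causes were not tested.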
